A study of Mus musculus with 4 samples.

Results

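Transcripts of the Wnt ligands and of the enzyme that readies them for export were followed in small-intestinal adenomas of mice labelled as PAF knockouts and of controls. The genes were taken by name from the deposited expression table, whose rows are in capitals (WNT2B, WNT3, WNT4, WNT5A, WNT5B, WNT6, WNT9B, WNT10A, WNT11 and PORCN). They are 9 ligands (Wnt2b, Wnt3, Wnt4, Wnt5a, Wnt5b, Wnt6, Wnt9b, Wnt10a and Wnt11) and the acyltransferase Porcn. All 10 were found, each on a single row, among 29871 rows with a distinct symbol. RNA sequencing had been run on 4 adenoma libraries. The 2 control libraries came from mice of genotype APC Min/+, and the 2 knockout libraries from mice of genotype PAF KO; APC Min/+. Every library therefore carried the Min allele, a truncating mutation of 1 copy of the tumour suppressor Apc. PAF is read here, on knowledge of the study, as the product of Pclaf that binds the replication clamp PCNA. The sources used here do not give the age of the mice, the design of the knockout allele or whether adenomas were pooled. Nothing in the labels says that libraries of a group came from separate animals, so the p-values measure only the spread between these samples. For the control pair that spread may be technical. The knockout libraries differed in sex, as described below, and so did not come from the same animal.

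Wnt proteins are secreted lipid-modified signals. In the endoplasmic reticulum Porcn attaches a fatty acid to them, the carrier Wls takes them to the cell surface, and there they bind Frizzled receptors with Lrp5 or Lrp6. In the canonical branch this stops the Apc-containing destruction complex from degrading beta-catenin, which then drives target genes with TCF/LEF factors, while other ligands, Wnt5a among them, act largely without beta-catenin. In the mouse small intestine Wnt3, Wnt6 and Wnt9b are known from the crypt epithelium, where Paneth cells are a source of Wnt3, and Wnt2b, Wnt4, Wnt5a and Wnt5b from the mesenchyme underneath. Loss of Apc activates the pathway downstream of the ligands.

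Promoter windows were available for 7 of the 10 genes in a RefSeq table of build GRCm38.p6, each running from 250 bases before the annotated start to 50 bases after it. Of these, 3 are shown because they cover the tested ligand with the lowest log2 fold change (Wnt6), an epithelial ligand that did not share that pattern (Wnt3) and the ligand on which the knockout libraries disagreed most (Wnt11). The Wnt6 window is chr1:74771642-74771941 on the plus strand, that of Wnt3 is chr11:103773925-103774224 on the plus strand and that of Wnt11 is chr7:98834862-98835161 on the plus strand. They are written 5′ to 3′, and capitals mark matches on either strand to the TCF/LEF heptamers that begin with CTTTG and end with AA, AT, TA or TT.
Wnt6: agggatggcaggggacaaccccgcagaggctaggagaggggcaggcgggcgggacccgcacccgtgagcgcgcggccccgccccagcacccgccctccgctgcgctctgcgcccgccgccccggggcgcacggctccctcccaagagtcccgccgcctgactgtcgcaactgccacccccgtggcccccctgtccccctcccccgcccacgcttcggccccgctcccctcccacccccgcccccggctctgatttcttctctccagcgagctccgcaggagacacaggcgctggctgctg
Wnt3: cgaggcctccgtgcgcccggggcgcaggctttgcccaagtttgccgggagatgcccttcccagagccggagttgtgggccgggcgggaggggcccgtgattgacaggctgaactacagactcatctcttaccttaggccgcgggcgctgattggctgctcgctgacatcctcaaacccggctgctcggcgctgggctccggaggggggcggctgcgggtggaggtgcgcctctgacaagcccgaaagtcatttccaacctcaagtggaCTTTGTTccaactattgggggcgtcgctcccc
Wnt11: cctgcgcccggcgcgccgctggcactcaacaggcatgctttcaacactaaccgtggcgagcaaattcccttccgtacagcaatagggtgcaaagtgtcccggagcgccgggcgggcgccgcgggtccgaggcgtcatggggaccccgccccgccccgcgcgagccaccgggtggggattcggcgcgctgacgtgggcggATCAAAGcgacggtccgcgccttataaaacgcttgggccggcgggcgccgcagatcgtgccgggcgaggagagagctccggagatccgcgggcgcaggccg

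The Wnt6 window held 0 such heptamers and 6 GC boxes (GGGCGG on either strand), and 76.7% of its bases were G or C. The Wnt3 window held 1 heptamer, beginning 18 bases after the start, and the Wnt11 window shown 1, read on the opposite strand, together with 1 TATAAA. A second Wnt11 window, chr7:98838595-98838894, is not shown and held 0 heptamers and 0 TATAAA. Of all 32851 windows of this length in the table, 16.9% held at least 1 of the heptamers, 35.7% a GC box and 13.6% a TATAAA. These letter matches describe the windows and are not measured binding sites. In the same reference, Wnt6 and Wnt10a are neighbouring coding genes on chromosome 1, and Wnt9b and Wnt3 are neighbours on chromosome 11.

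The libraries themselves were unequal. Values are FPKM, fragments scaled for transcript length and for the total of mapped fragments. The smallest steps between low values put the depth at about 13300000 and 17600000 fragments for the controls and 15600000 and 24200000 for the knockouts. Across the 13716 rows that averaged 1 FPKM or more, the median gap on the log2(FPKM + 1) scale was 0.0882 within the control pair and 0.488 within the knockout pair. For PAF itself (row 2810417H13Rik) both controls stood near 17.9 FPKM, knockout 1 at 4.13 and knockout 2 at 11.4 FPKM. The transcript was thus lower in both but far from absent in the library labelled knockout 2, and as the deleted part is not known here, this checks that label only weakly. The names knockout 1 and knockout 2 follow the labels throughout, and every direction given for the knockouts rests on them. Xist, a transcript of the inactive X chromosome of females, read 46.4 FPKM in knockout 2 and at most 0.00861 FPKM elsewhere, so the knockout libraries differed in sex. Epithelial markers were abundant everywhere, with Epcam between 945 and 1342 FPKM.

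In the controls the ligand pool was led by Wnt6, and in the knockouts by Wnt5a. Wnt6 averaged 15.1 FPKM in the controls, followed by Wnt5a at 7.69, Wnt10a at 3.03, Wnt11 at 1.72, Wnt5b at 1.60, Wnt3 at 1.18, Wnt2b at 0.663, Wnt4 at 0.365 and Wnt9b at 0.0559 FPKM. Neighbours in that order were separated in both control libraries except Wnt11 and Wnt5b, whose values overlapped. In the knockouts Wnt5a averaged 11.5 FPKM and Wnt6 3.48. Below them Wnt3, Wnt2b, Wnt11, Wnt5b and Wnt4 followed, each overlapping the next, Wnt10a averaged 0.616 FPKM within the range of Wnt11, and Wnt9b stayed lowest at 0.0378 FPKM.

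**Figure D1:**
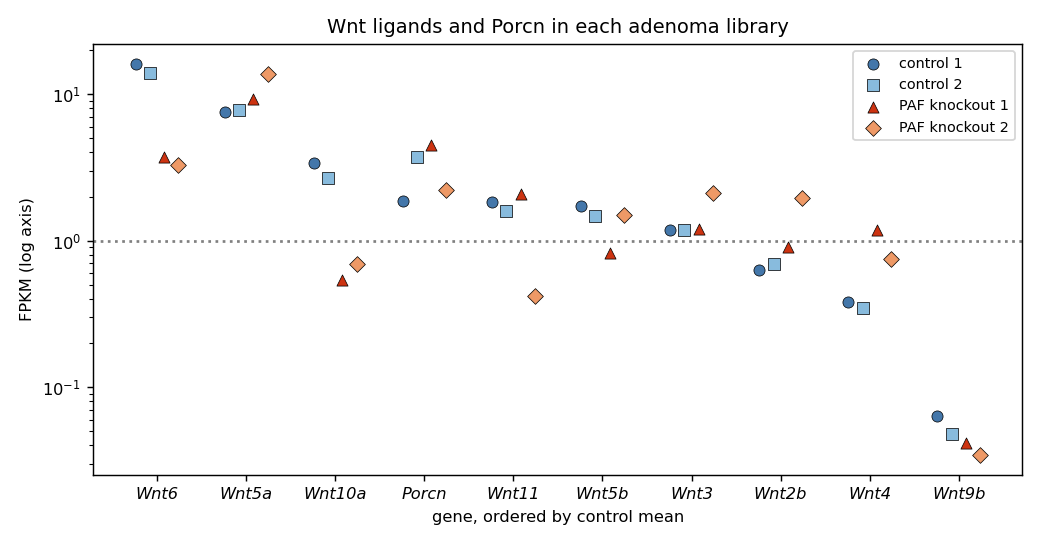
FPKM (log axis) of the 9 ligands and Porcn in each of the 4 libraries, 1 point per library, ordered by control mean; the dotted line marks 1 FPKM. Both knockout points of Wnt6 and Wnt10a lie below both control points, those of Wnt5a, Wnt2b, Wnt3 and Wnt4 lie above them, and Wnt9b lies under 0.1 FPKM throughout.

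The comparison of genotypes asked which of these transcripts differ between the libraries labelled PAF KO and the controls. It was made with limma on log2(FPKM + 1) over all 13716 rows, with Benjamini-Hochberg adjustment over those rows, and 8 of the 10 genes passed the filter of a mean of 1 FPKM. Wnt4 and Wnt9b did not pass. At an adjusted p under 0.05, 0 of the 8 were called, where 0.0729% of all tested rows were called. At an unadjusted p under 0.05, 2 of the 8 were lower in the knockouts, Wnt6 and Wnt10a, beside 9.76% of all tested rows, and 0 were higher, beside 3.44%. The median log2 fold change over the 8 was -0.04, with 0.003 over all tested rows. Counting all 10 genes, both knockout libraries lay below both controls for 3 (Wnt6, Wnt9b and Wnt10a) and above them for 4 (Wnt2b, Wnt3, Wnt4 and Wnt5a). Over the 21376 rows above 0 in at least 1 library, 24.0% lay wholly below and 21.3% wholly above. Of the 13716 tested rows, 4147 lay wholly below and 2943 wholly above.

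Wnt6, a ligand of the crypt epithelium, showed the lowest fold change of the 8 tested genes. It measured 16.2 and 13.9 FPKM in the control pair against 3.69 and 3.27 FPKM in the knockout pair, so that 24.5% and 21.7% of the control mean remained. The groups did not overlap. On the log2(FPKM + 1) scale the controls differed by 0.20, more than in 81.2% of tested rows, and the knockouts by 0.14, more than in 15.6%. The log2 fold change was -1.84 (SE 0.177, 95% interval -2.34 to -1.34, n = 2 per group), with a limma unadjusted p of 0.000614 and adjusted p of 0.182, rank 46 of 13716 by p. Of all tested rows, 1.77% had a lower fold change. Each value rests on roughly 119 to 506 fragments, estimated from the longest coding transcript in GENCODE. An antisense gene, Gm29539, overlaps Wnt6 in that annotation, and strand use is not stated, so its reads cannot be told apart from those of Wnt6.

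Wnt10a, the neighbour of Wnt6 on chromosome 1 and a canonical ligand best known from skin appendages and teeth, was lower to a like degree. It measured 3.37 and 2.68 FPKM in the control pair against 0.541 and 0.691 FPKM in the knockout pair, or 17.9% and 22.8% of the control mean. Again the groups did not overlap, and the gap between the controls, 0.25 on the log2(FPKM + 1) scale, was larger than that of 86.4% of tested rows. Its log2 fold change was -1.31 (SE 0.229, 95% interval -1.96 to -0.67), with a limma unadjusted p of 0.00527 and adjusted p of 0.250. Adding 1 before taking logs shrinks the differences of scarce transcripts, and the raw ratio of means was 4.91 for Wnt10a and 4.32 for Wnt6, control over knockout. The ratio of Wnt6 to Wnt10a within a library came to 4.80 and 5.19 for the control pair against 6.83 and 4.73 for the knockout pair, so it overlapped between the groups.

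With only 1 knockout library set against the controls, both genes passed the adjusted threshold. The log2 fold change of Wnt6 was -1.77 (limma adjusted p = 0.0209) without knockout 2 and -1.91 (adjusted p = 0.00556) without knockout 1, and that of Wnt10a was -1.38 (adjusted p = 0.0333) and -1.25 (adjusted p = 0.0130). These fits assume that the lone knockout varies like the controls, and in them 2833 and 8397 rows of the whole table were called. Without control 1 or control 2 the values stayed between -1.94 and -1.74 for Wnt6 and between -1.44 and -1.19 for Wnt10a, but the adjusted p was 0.998 or above.

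Of the other epithelial ligands of the crypt, Wnt3 was not lower in either knockout and Wnt9b was too scarce to compare. Wnt3, a signal from Paneth cells to stem cells, measured 1.18 and 1.18 FPKM in the control pair, 1.20 FPKM in knockout 1 and 2.10 FPKM in knockout 2. Knockout 1 was at the control level and knockout 2 stood above it, so the log2 fold change of 0.26 (SE 0.275, 95% interval -0.52 to 1.04; limma adjusted p = 0.654) came from 1 library. Without knockout 1 it was 0.51, and without knockout 2 it was 0.016. The summed FPKM of 6 Paneth cell markers was 2432 and 2544 in the controls, 1788 in knockout 1 and 7080 in knockout 2. Among them Ang4 alone measured 393 and 451 FPKM in the control pair, 103 FPKM in knockout 1 and 3248 FPKM in knockout 2. The lysozyme gene Lyz1 was the 1 marker above both controls in each knockout and 5 overlapped, where 21.3% of all rows above 0 lay wholly above. Lyz1 measured 980 and 1005 FPKM in the control pair, 1006 FPKM in knockout 1 and 1406 FPKM in knockout 2. Knockout 1 was thus barely above control 2. At an unadjusted limma p under 0.05, 0 of the 6 were lower or higher. None of the 6 was listed at 0 in every library, and their part in the Wnt3 values was not tested. Wnt9b measured 0.0638 and 0.0481 FPKM in the control pair against 0.0413 and 0.0343 FPKM in the knockout pair, about 3 to 4 fragments in each library. Both knockouts lay below both controls, but a difference of that size was not detectable at this depth.

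Wnt5a, a mesenchymal ligand that acts largely outside the beta-catenin branch, was the most abundant ligand in both knockout libraries. It measured 7.54 and 7.84 FPKM in the control pair, 9.32 FPKM in knockout 1 and 13.7 FPKM in knockout 2. Both knockouts lay above both controls, with a log2 fold change of 0.504 (SE 0.239, 95% interval -0.17 to 1.18) that did not pass the test (limma unadjusted p = 0.106, adjusted p = 0.449). Without knockout 1 it was 0.76 and without knockout 2 it was 0.25. With quantile normalization or median centring it was 0.57 and 0.56, with limma unadjusted p of 0.0454 and 0.0475 and adjusted p of 0.363 and 0.367. The share of all rows that were higher at an unadjusted p under 0.05 in these fits was not counted. An antisense gene, Gm2670, overlaps Wnt5a in GENCODE, and its reads cannot be told apart.

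Wnt2b, a canonical ligand of the mesenchyme, followed the same order of libraries as Wnt5a. It measured 0.633 and 0.692 FPKM in the control pair, 0.899 FPKM in knockout 1 and 1.94 FPKM in knockout 2, or 136% and 293% of the control mean. This gave a log2 fold change of 0.51 (SE 0.320, 95% interval -0.40 to 1.41; limma adjusted p = 0.527), 0.82 without knockout 1 and 0.19 without knockout 2. A sense intronic gene, Gm43846, lies within Wnt2b on the same strand in GENCODE, and its reads cannot be told apart. Wnt4, a further mesenchymal ligand, had the reverse order among the knockouts. It measured 0.384 and 0.347 FPKM in the control pair, 1.19 FPKM in knockout 1 and 0.751 FPKM in knockout 2, on roughly 21 to 78 fragments. Wnt4 was tested only when the filter was dropped, where its log2 fold change was 0.52 (SE 0.153) with a limma unadjusted p of 0.0317 and adjusted p of 0.387. Over the rows of that fit 3.96% were higher at an unadjusted p under 0.05, and 0.0187% passed the adjusted threshold.

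Wnt5b, the paralogue of Wnt5a, did not share its pattern. It measured 1.72 and 1.48 FPKM in the control pair, 0.828 FPKM in knockout 1 and 1.503 FPKM in knockout 2, which lay among the controls. Its log2 fold change was -0.28 (SE 0.271, 95% interval -1.05 to 0.49; limma adjusted p = 0.634), -0.51 without knockout 2 and -0.053 without knockout 1. The coding gene Fbxl14 lies opposite Wnt5b within its span in GENCODE and measured 16.3 and 15.1 FPKM in the control pair against 14.1 and 14.0 FPKM in the knockout pair, so stray reads from it cannot be told apart either.

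Wnt11, a ligand of beta-catenin-independent signalling, split the knockout libraries. It measured 1.83 and 1.60 FPKM in the control pair, 2.07 FPKM in knockout 1 and 0.417 FPKM in knockout 2. Knockout 1 was the highest of the 4 libraries and knockout 2 the lowest, at 120% and 24.3% of the control average. A log2 fold change of -0.38 (SE 0.457, 95% interval -1.68 to 0.91; limma adjusted p = 0.689) therefore turned to 0.18 without knockout 2, and was -0.94 without knockout 1. A processed pseudogene, Gm8398, overlaps Wnt11 on the opposite strand in GENCODE, and its reads cannot be told apart.

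Porcn, the enzyme that adds the fatty acid, differed as much within groups as between them. It measured 1.85 and 3.74 FPKM in the control pair against 4.47 and 2.23 FPKM in the knockout pair, so control 2 was 2.02 times control 1 and the groups overlapped. A log2 fold change of 0.19 (SE 0.423, 95% interval -1.01 to 1.39; limma adjusted p = 0.825) resulted, and it was -0.19 without knockout 1 and -0.18 without control 1. The gap between the controls was larger than that of 97.8% of tested rows. Porcn lies on the X chromosome, and knockout 2 was the library with Xist. The part of sex in the Porcn values was not tested.

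**Figure D2:**
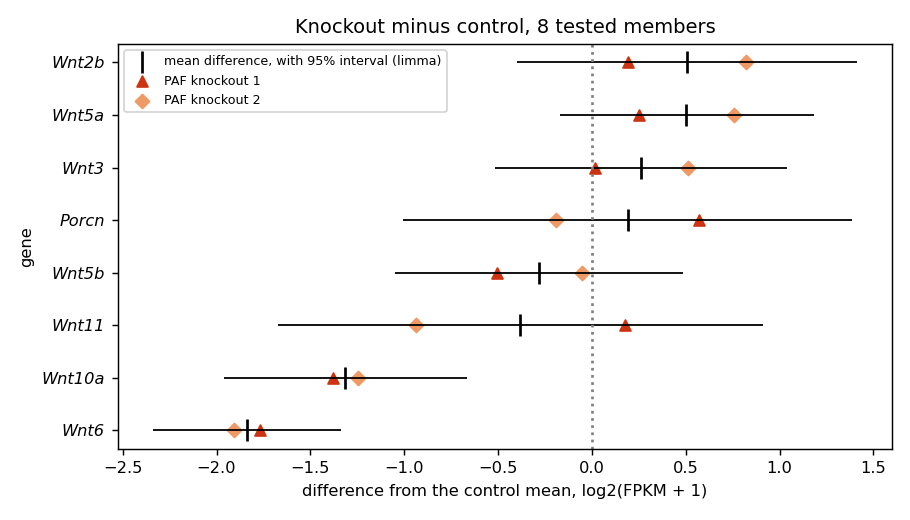
Difference from the control mean on the log2(FPKM + 1) scale for the 8 tested genes, with each knockout library as a coloured point, the mean difference as a vertical tick and its 95% interval from limma as a line. The intervals of Wnt6 (-2.34 to -1.34) and Wnt10a (-1.96 to -0.67) lie below 0, the other 6 span 0, and the knockout points of Wnt11 and Porcn fall on opposite sides of 0.

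Summed over the 9 ligands, FPKM came to 32.9 and 29.8 for the control pair against 19.8 and 24.4 for the knockout pair. Without Wnt6 the sums came to 16.7 and 15.9 for the control pair against 16.1 and 21.2 for the knockout pair, which overlapped. That remainder adds Wnt5a, higher in both knockouts, to Wnt10a, lower in both, so it does not speak for single ligands. Wnt6 made up 49.2% and 46.8% of the control sums and 18.7% and 13.4% of the knockout sums. Wnt5a made up 22.9% and 26.3% of the control sums and 47.1% and 56.1% of the knockout sums. The ratio of Wnt6 to Wnt5a, which does not depend on how libraries are scaled, came to 2.15 and 1.78 for the control pair against 0.396 and 0.238 for the knockout pair. An exact two-sided permutation test of 2 against 2 libraries cannot give less than p = 0.333, the value found for this ratio and for the sum.

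**Figure D3:**
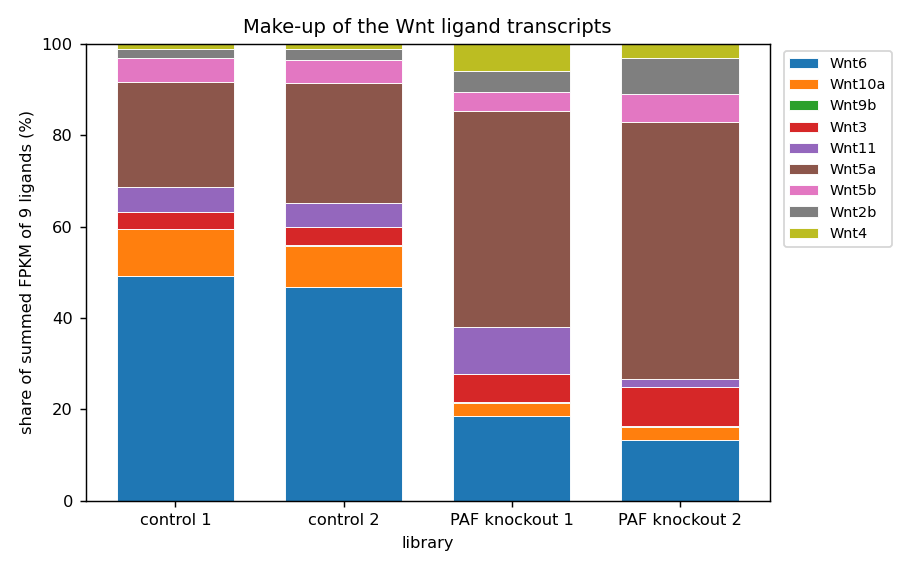
Share (%) of the summed FPKM of 9 Wnt ligands held by each ligand, 1 stacked bar per library. Wnt6 holds 49.2% and 46.8% of the control bars against 18.7% and 13.4% of the knockout bars, while Wnt5a holds 22.9% and 26.3% against 47.1% and 56.1%.

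The other 10 Wnt ligands of the mouse were all under 1 FPKM in every library, and 2 of them, Wnt3a and Wnt8a, were listed at 0 in all 4. Their summed FPKM came to 2.48 and 2.545 for the control pair against 1.185 and 0.958 for the knockout pair. Both knockouts lay below both controls for 4 of them (Wnt2, Wnt7a, Wnt7b and Wnt8b) and above for 1 (Wnt9a), all named after their values were seen, where 24.0% and 21.3% of all rows above 0 lay wholly below and wholly above. Wnt7a, an epithelial ligand in other organs, measured 0.394 and 0.471 FPKM in the control pair against 0.0599 and 0.0125 FPKM in the knockout pair. Wnt7b read 0.559 and 0.508 FPKM against 0.0937 and 0.136 FPKM, and Wnt2 read 0.756 and 0.841 FPKM against 0.373 and 0.0792 FPKM. None of the 10 reached the filter, so none was tested with the rest. With no filter their lowest limma adjusted p was 0.271, for Wnt7a.

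Genes of the route by which Wnt ligands leave the cell did not show the difference seen for Wnt6. Of 15 secretion and transport genes, all tested, 0 had an unadjusted p under 0.05 (limma; 9.76% of all tested rows were lower and 3.44% higher at that p), and their median log2 fold change was 0.29, or -0.05 in knockout 1 and 0.53 in knockout 2. Those of smallest p were p24 cargo receptors: Tmed2 measured 13.8 and 14.3 FPKM in the control pair against 17.0 and 86.5 FPKM in the knockout pair, Tmed10 had a log2 fold change of 0.43 and Tmed5 of 0.62. The dedicated carrier Wls, named outside the rule, measured 45.2 and 41.9 FPKM in the control pair, 19.5 FPKM in knockout 1 and 53.8 FPKM in knockout 2. Its knockout values lay on either side of the controls.

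Outside the cell, genes that modify or bind Wnt proteins lay in both directions. Of 15 listed, 14 were found and 8 tested, with a median log2 fold change of -0.31, or -0.09 with no filter. At an unadjusted limma p under 0.05, 3 were lower and 1 higher (9.76% and 3.44% of all tested rows). Notum, which removes the fatty acid that Porcn adds, measured 309 and 312 FPKM in the control pair against 117 and 90.1 FPKM in the knockout pair. The glypican Gpc1, a cell surface proteoglycan, read 34.1 and 30.7 FPKM against 13.3 and 11.1 FPKM, and the third lower gene was Gpc3 (log2 fold change -1.71). The sulfatase Sulf1, which trims heparan sulfate, read 3.36 and 2.81 FPKM against 7.53 and 17.6 FPKM. None passed the adjusted threshold (lowest limma adjusted p = 0.235).

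Among 12 secreted antagonists, 5 were tested, with a median of -0.88. At an unadjusted limma p under 0.05, 3 were lower and 1 higher (9.76% and 3.44% of all tested rows). That median depended on the filter, and with no filter it was 0.036. Of the 12, 4 lay wholly below the controls, 4 wholly above and 4 overlapped. Of all rows above 0, 24.0% lay wholly below and 21.3% wholly above. Wif1, which binds Wnt proteins directly, measured 322 and 316 FPKM in the control pair against 65.3 and 71.3 FPKM in the knockout pair. Dkk3 and the IGF-binding protein Igfbp4 had log2 fold changes of -0.88 and -0.86, and Sfrp1, a decoy for Wnt proteins named as the single higher gene, had 1.42. Of 19 receptors and co-receptors, 16 were tested, with 5 lower and 0 higher at that p, beside the same 9.76% and 3.44%, and a median of -0.27. Fzd10 measured 40.4 and 40.2 FPKM in the control pair against 4.43 and 5.997 FPKM in the knockout pair. Ptk7 and Ror2, receptors linked to beta-catenin-independent signalling, had log2 fold changes of -1.48 and -0.71, and the other lower genes were Fzd6 and Fzd2. No antagonist or receptor passed the adjusted threshold (lowest limma adjusted p = 0.160, for Fzd10).

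Of 16 feedback and target genes of Wnt/beta-catenin signalling, 15 were tested, with a median of -1.17. At an unadjusted limma p under 0.05, 11 were lower and 0 higher (9.76% and 3.44% of all tested rows). Notum, among the 11, was also counted with the extracellular genes, and Lgr5, not among them, also with the receptors. Apcdd1 measured 40.1 and 41.5 FPKM in the control pair against 14.1 and 13.9 FPKM in the knockout pair, the transcription factor Lef1 20.2 and 16.2 FPKM against 5.65 and 4.89 FPKM, and the ubiquitin ligase Znrf3 23.3 and 23.3 FPKM against 9.39 and 10.3 FPKM. The list was made with earlier results of these data known, so its direction is no independent evidence. None passed the adjusted threshold (lowest limma adjusted p = 0.182).

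**Figure D4:**
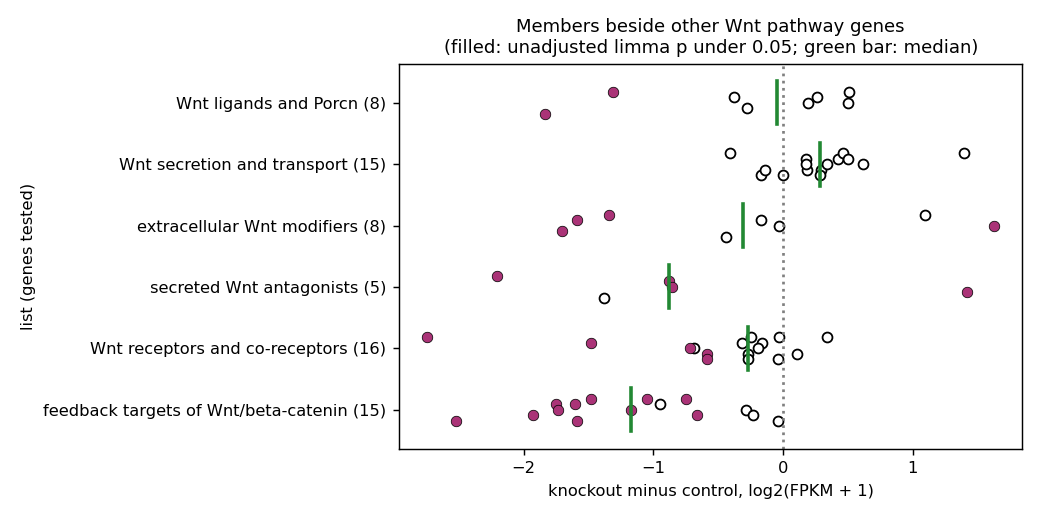
Log2 fold change, knockout minus control on the log2(FPKM + 1) scale, for each tested gene of the ligands with Porcn and of 5 other Wnt pathway lists; filled points have an unadjusted limma p under 0.05 and the green bar is the list median. Of the ligands with Porcn 2 of 8 are filled, none of 15 secretion genes is, and 11 of 15 feedback and target genes are, all to the left of 0. Notum and Lgr5 each stand in 2 of the lists.

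The rows whose values over the 4 libraries lay nearest to those of Wnt6 were Plat, Fam62b and Marcksl1. Likeness was the Euclidean distance between log2(FPKM + 1) values after subtracting the control mean of each row, ranked over 13715 rows, and these distances were 0.116, 0.141 and 0.192. Plat, the tissue plasminogen activator, measured 458 and 434 FPKM in the control pair against 134 and 124 FPKM in the knockout pair. With 4 libraries in 2 groups, likeness mostly reflects the size of the group difference.

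Markers of the cells known to make these ligands also differed between libraries. In bulk RNA, fewer cells of a type and less RNA per cell cannot be told apart. Of all rows above 0, 21.3% lay wholly above the controls and 24.0% wholly below, the background to the marker counts. Most markers passed the filter, and of the 13716 tested rows 2943 lay wholly above and 4147 wholly below. Of 8 fibroblast markers, 7 lay above both controls in each knockout, with a summed FPKM of 274 and 277 in the controls, 347 in knockout 1 and 713 in knockout 2, which is 1.26 and 2.59 times the control mean. On the same scale Wnt5a was at 1.21 and 1.78 times and Wnt2b at 1.36 and 2.93 times. The other mesenchymal ligands differed from this: Wnt4 was at 3.26 and 2.06 times, the reverse order, and Wnt5b at 0.518 and 0.940 times, below the control mean. Of 7 telocyte and trophocyte markers, which mark mesenchymal cells around the crypt, 4 lay higher in both knockouts and 2 lower, and their sum was 1.68 and 2.87 times the control mean. Pdgfra stands in both of these lists. At an unadjusted p under 0.05 the tissue factor gene F3 and the BMP antagonist Grem1 were higher, Grem1 at 10.2 and 8.45 FPKM against 28.1 and 79.4 FPKM, and Ackr4 (row Ccrl1) was lower. Foxl1, which defines telocytes, measured 2.17 and 2.09 FPKM in the control pair against 1.53 and 1.37 FPKM in the knockout pair.

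Smooth muscle markers summed to 1.06 and 3.82 times the control mean, with 5 of 6 higher in both knockouts, endothelial markers to 1.17 and 1.31 times with 4 of 5 higher, and macrophage markers to 0.674 and 1.235 times with 0 of 6 higher. None of these markers was listed at 0 in every library, and the part of such cells in the values of the ligands was not tested. Of 7 epithelial markers, 2 lay higher in both knockouts (the keratins Krt19 and Krt8), 2 lower (Cdh1 and Vil1) and 3 overlapped, and 0 passed an unadjusted p under 0.05. Their median difference from the control mean on the log2(FPKM + 1) scale was -0.04 in knockout 1 and -0.006 in knockout 2. Their summed FPKM, to which the keratins contribute most, was 6801 and 6724 for the control pair against 7858 and 7911 for the knockout pair, 1.16 and 1.17 times the control mean. On that scale Wnt6 was at 0.245 and 0.217 times and Wnt10a at 0.179 and 0.228 times, and the part of epithelial cells in these values was not tested.

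**Figure D5:**
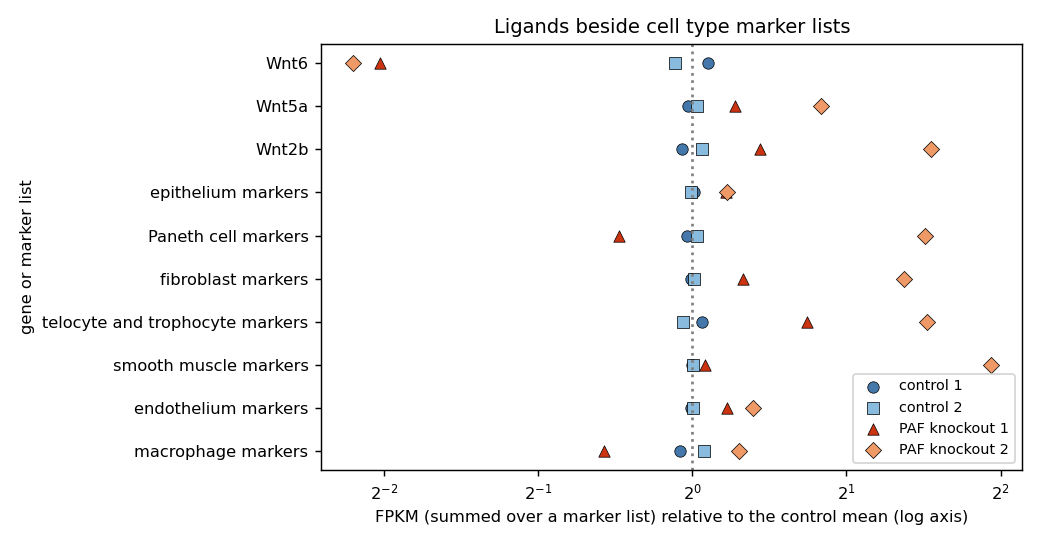
FPKM of 3 ligands and summed FPKM of 7 cell type marker lists in each library, relative to the control mean (log axis, powers of 2), 1 point per library. The mesenchymal ligands Wnt4 and Wnt5b, which did not follow the fibroblast sum, are not drawn. In knockout 2 Wnt5a (1.78), Wnt2b (2.93) and the fibroblast markers (2.59) lie to the right of 1, while Wnt6 lies at 0.245 and 0.217 in the knockouts with the epithelial markers at 1.16 and 1.17.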

How the data were processed

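RNA of 4 libraries, 2 per genotype, had been sequenced. The authors deposited 1 table of FPKM values with a column per library, per the file headers. The submitters' processing notes list TopHat2, Cuffdiff and build mm9, while versions, settings, strand use and annotation were not given in sources used here. Of 29955 rows, 84 were further rows of a symbol already present, and the most abundant was used. Testing took rows that averaged 1 FPKM or more and log2(FPKM + 1) values, with limma 3.58.1 (R 4.3.3), knockout against control, with a trend on mean expression, and called at a Benjamini-Hochberg adjusted p under 0.05. The steps were also run on simulated data, in which both groups had the same spread for each row. The control and knockout pairs here differed in spread, so that run cannot vouch for the p-values.

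FPKM are not counts, so no count test was used. Depth was estimated from the most common smallest step of FPKM times length among genes with 1 transcript of at least 1000 bases in GENCODE M21, whose lengths may differ from those the authors used. Chromosomes, neighbours and promoters came from RefSeq tables of GRCm38.p6. The table's build differs, so no coordinates were joined.

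The genes and the 13 lists beside them were chosen with earlier results of these data known. Besides every ligand and Porcn, named genes are up to 3 of smallest p in each list and the 3 rows nearest in profile to the gene of smallest p. Genes outside that rule were chosen after their values were seen: Gpc3, Sfrp1, Fzd6, Fzd2, Lgr5, Ang4, Foxl1, Pdgfra, Epcam, Vil1, Wls and Fbxl14. So were the other ligands named, Rspo1, Rspo2, Rspo3 and Rspo4. Of the listed symbols, 3 were found under an older name. The alternatives were pseudocounts of 0.1 and 0.01, no filter or one at 5 FPKM, quantile normalization, median centring, a replicate block and leaving out each library.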

Additional observations from a re-analysis of the deposited data

How the results depend on the processing

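The direction of Wnt6 (log2 fold change -2.11 to -1.74 over 12 alternatives), Wnt10a (-2.28 to -1.19 over 11), Wnt5a, Wnt2b, Wnt3 and Wnt5b held under every alternative run for them. It turned for Wnt11 without knockout 2 (0.18; range over left-out libraries -0.94 to 0.18) and for Porcn without knockout 1 (-0.19) and without control 1 (-0.18; range -0.19 to 0.57). With 1 library left out, rows called ranged from 0 to 8397 beside 10 with all 4, called members from 0 to 6 beside 0, members higher at an unadjusted p under 0.05 from 0 to 3 beside 0, and members lower from 2 to 3 beside 2. Those fits assume that a lone library varies like the other group. Called members rose and fell with the rows called over the whole table, so these counts are no result about the members. The share of all rows higher or lower at the unadjusted p was not counted for those fits. With no filter 4 rows were called. With a filter at 5 FPKM only Wnt6 and Wnt5a were tested, so 1 member was lower. With median centring 1 member was higher (Wnt5a), with quantile normalization 1 (Wnt5a), and with no filter 1 (Wnt4). The cause was not tested. With no filter 3.96% of all rows were higher at an unadjusted limma p under 0.05. For median centring and quantile normalization that share was not counted, so their counts are no result about the members. The replicate numbers are not stated to pair libraries, and deviations of same-numbered libraries correlated at -0.115 across rows; with the replicate block 13 rows were called, 0 members were called, 2 lower and 0 higher. With the numbers crossed, an alternative added after seeing the data, 13 rows and 0 members were called. Depth limits Wnt9b, at about 3 to 4 fragments a library. Of 144 list medians under the alternatives, 131 stayed within the SD of the 2 knockout medians and 13 moved further.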

Other observations

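R-spondins, secreted partners of the Lgr receptors that raise sensitivity to Wnt ligands, were scarce in the controls. Rspo3 read 0.251 and 0.142 FPKM there, 0.569 FPKM in knockout 1 and 3.16 FPKM in knockout 2 (limma adjusted p = 0.465), and Rspo1 read at most 0.0954 FPKM in 3 libraries and 0.654 FPKM in knockout 2. Rspo4, the highest of them in the controls, read 0.318 and 0.526 FPKM there against 0.219 and 0.330 FPKM in the knockout pair. Its groups overlapped. Rspo2 read 0 in both controls and at most 0.0776 FPKM in the knockouts. These genes were named after their values were seen.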
